A study of Mus musculus with 12 samples.

Results

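The 9 genes described here form the core of the Notch pathway in the study's table of striatal cells. They are the receptors Notch1, Notch2 and Notch3, the ligands Jag1, Dll1 and Dll4, and the transcriptional targets Hes1, Hes5 and Hey1. They were chosen by symbol from the 31053 genes of the raw count table, and all 9 were found. The cells were isolated from the striatum of wild type mice, whose strain the labels give as mixed, although the methods of the study name male C57BL/6Jax mice as the source of brain tissue, and were enriched by magnetic sorting (MACS) with an antibody against ACSA2, an astrocyte surface antigen encoded by Atp1b2. Per the methods of the study, the striatum was taken without the subventricular zone and several animals were pooled in a preparation, so a library is a pool and not 1 animal. Single cells were profiled with a droplet kit that reads the 3′ ends of transcripts and tags each captured molecule with a unique molecular identifier (UMI). The 12 samples were sequencing runs of 4 libraries, 2 from early postnatal mice and 2 from mice aged 3 months (3m). The labels disagree on the postnatal ages, because replicate 1 is titled P7 with an age tag of day 3 and replicate 2 is titled P3 with an age tag of day 7. The study gives P3 as the age of its early postnatal striatal cells. Both postnatal libraries were treated as 1 group, and the spread between them includes any difference between the days in the labels.

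Notch receptors are membrane proteins that are activated when a Delta or Jagged ligand on a neighbouring cell binds them. The receptor is then cut, and its intracellular domain moves to the nucleus, joins the DNA-binding protein RBPJ and switches on repressors of the Hes and Hey families. In the brain the pathway is known for keeping neural progenitors undifferentiated and for promoting the astrocyte fate. In blood vessels Dll4 marks endothelial cells of arteries and sprouting tips, and Notch3 is the main receptor of mural cells, the pericytes and smooth muscle cells that wrap the vessel wall.

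The 4 libraries held 651, 832, 1449 and 1313 barcodes, in the order postnatal replicates 1 and 2 and 3m replicates 1 and 2. After removal of cells with over 10% mitochondrial UMIs or under 500 genes, and of 46 cells that may be copies, 3117 of 4245 remained, with median depths between 7737.5 and 11644 UMIs. The replicate 2 libraries of the 2 ages had 95 barcodes in common, and no other pair had more than 2. In all 95, the smaller cell held under 5% of the UMIs of the larger one, and these smaller cells (82 in 3m replicate 2 and 13 in postnatal replicate 2) were left out as possible copies. Cells were then assigned to a class where they carried at least 50% of the class's marker genes and at least 2 times as many UMIs of those markers as of the markers of any other class. The labels describe all cells as astrocytes, but astroglia-like cells made up 63.2% and 70.8% of the postnatal cells and 27.8% and 39.9% of the 3m cells. Oligodendrocyte-like cells made up 50.1% and 40.6% of the 3m libraries, while 0 of the 555 and 723 postnatal cells were of this class. Atp1b2 itself was detected outside the astroglia-like class too, at 205 to 756 counts per 1e6 UMIs of the sum (CPM) in mural-like cells against 206 to 1442 CPM in astroglia-like cells.

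The upstream sequences of a pair of members that were lower at 3m are shown first, because the one carries the core word of the RBPJ binding site and the other does not. Both are the 250 bases before the gene start in RefSeq (GRCm38.p6), written along the gene's own strand, with any TGGGAA or its reverse complement TTCCCA in capitals. The Hes5 window lies at chr4:154960673-154960922 on the plus strand and the Notch3 window at chr17:32166891-32167140 on the minus strand.
Hes5: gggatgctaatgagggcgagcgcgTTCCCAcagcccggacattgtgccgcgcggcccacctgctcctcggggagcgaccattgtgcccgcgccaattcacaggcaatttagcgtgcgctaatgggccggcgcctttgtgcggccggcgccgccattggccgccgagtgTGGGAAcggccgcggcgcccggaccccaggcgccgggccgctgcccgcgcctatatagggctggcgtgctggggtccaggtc
Notch3: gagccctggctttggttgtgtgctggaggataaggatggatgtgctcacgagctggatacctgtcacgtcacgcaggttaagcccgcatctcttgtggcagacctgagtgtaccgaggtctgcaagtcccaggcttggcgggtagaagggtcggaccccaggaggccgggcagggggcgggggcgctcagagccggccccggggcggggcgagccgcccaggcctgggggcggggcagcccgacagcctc
The Hes5 window held 2 matches, which begin 226 and 82 bases before the gene start and lie on opposite strands, and both matched the longer word GTGGGAA on their strand. Promoters were matched for 7 of the 9 members, in 8 entries, and of these Hes5 was the only member with the word. No entry was matched for the targets Hes1 and Hey1, so whether they carry the word was not examined. TGGGAA or its reverse complement occurred in 21.6% of all 32851 RefSeq promoter windows of this length, and the longer word occurred in 5.42%. A word match is a description of the sequence and does not show binding.

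All 9 members are protein-coding genes in the GRCm38 annotation. Hes5 (chr4:154960923-154962371, plus strand, 3 exons), Hes1 (chr16:30064384-30067796, plus strand, 4 exons) and Hey1 (chr3:8663359-8667256, minus strand, 5 exons) are short genes. The receptors Notch1 (chr2:26457903-26516663, minus strand), Notch2 (chr3:98013527-98150361, plus strand) and Notch3 (chr17:32120820-32166852, minus strand) have 34, 34 and 33 exons. The ligand genes are Jag1 (chr2:137081456-137116644, minus strand, 26 exons), Dll1 (chr17:15367354-15376872, minus strand, 11 exons) and Dll4 (chr2:119325784-119335962, plus strand, 11 exons). Notch1 overlaps Mir6996 and Notch2 overlaps Gm42819 and Gm42820 on the same strand, so reads there could not be told apart from reads of the larger gene.

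The members fell into different cell classes. Hes5, a repressor downstream of Notch in neural progenitors and glia, was an astroglial and precursor gene, Dll4 an endothelial gene and Notch3 a gene of mural-like cells with a lower level in astroglia-like cells. Hes1 and Notch1 were found in glial and vascular classes alike, but at no more than 0.893 and 6.50 CPM in oligodendrocyte-like cells. The 4 contrasts between classes came from a single fit of 16 sums of raw counts per class and library, with 5 residual degrees of freedom, and a gene was called at an adjusted p of at most 0.05 in edgeR's quasi-likelihood test and a log2 fold change of at least 1 in size. All 9 members were among the 11800 genes tested.

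**Figure D1:**
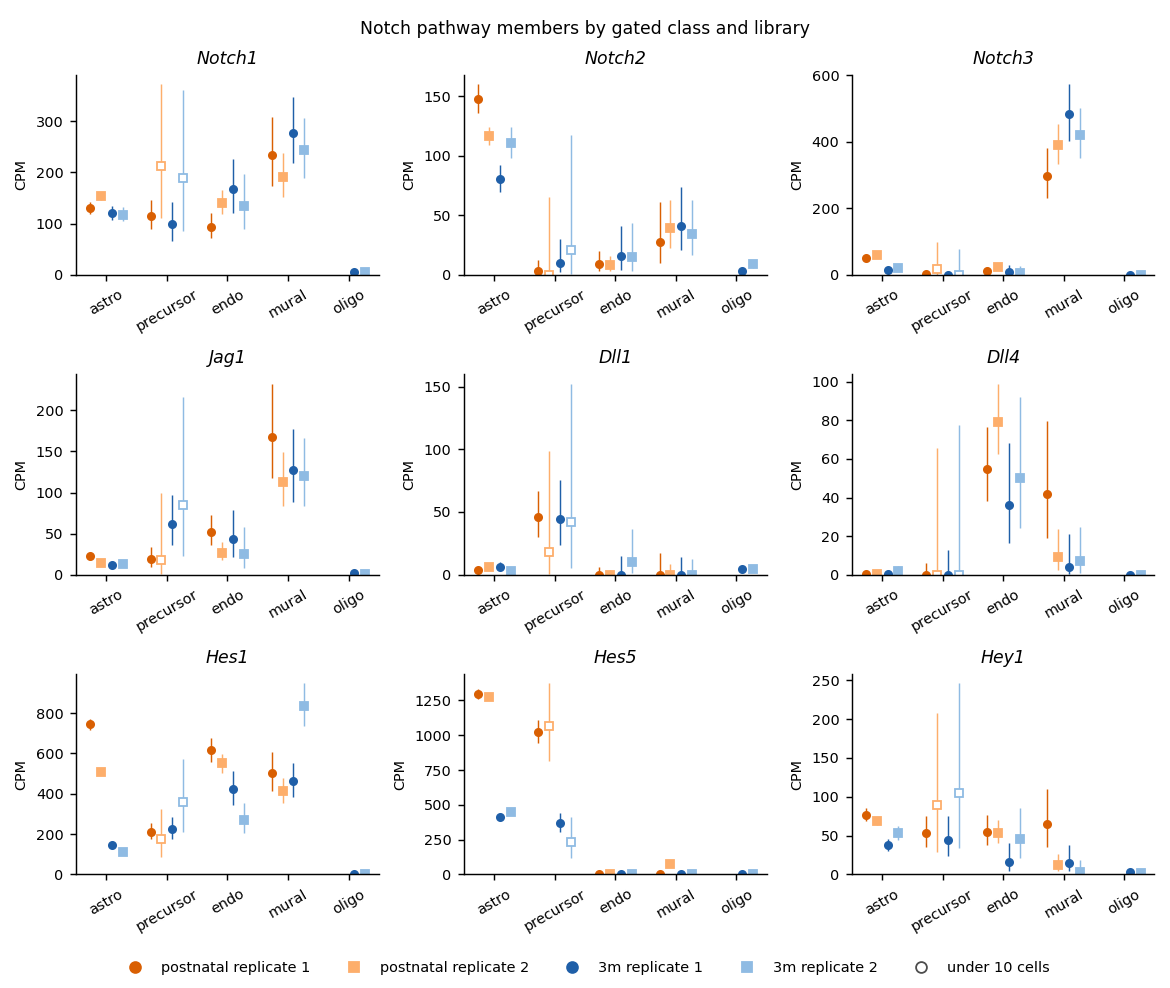
Level of each member in CPM (linear axis from 0) in the astroglia-like, oligodendrocyte precursor-like, endothelial-like, mural-like and oligodendrocyte-like cells of each library, with exact 95% Poisson intervals that cover counting error only. Open symbols are sums of fewer than 10 cells. Hes5 stood at 414 CPM or more in every astroglia-like sum, Dll4 at 35.9 CPM or more in every endothelial-like sum and Notch3 at 298 CPM or more in every mural-like sum.

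Of the receptors, Notch3 was measured at 298 and 391 CPM in the postnatal and 483 and 421 CPM in the 3m mural-like sums. In astroglia-like cells it reached 50.1 and 60.8 CPM postnatally and 16.4 and 20.6 CPM at 3m. Endothelial-like cells held between 5.02 and 22.6 CPM, and the oligodendrocyte precursor-like sums of at least 10 cells held 1 and 0 UMIs. Mural-like cells were therefore the highest in all 4 libraries, without overlap with the other classes of at least 10 cells in a sum. The astroglia minus mural log2 fold change was -3.38 ± 0.15 (SE, adjusted p = 2.4e-14, edgeR), and that of endothelial minus mural was -5.03 ± 0.24 (adjusted p = 2.3e-12, edgeR).

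Notch2 had another distribution. It was measured at 148 and 116 CPM in the postnatal and 80.1 and 111 CPM in the 3m astroglia-like sums. Mural-like sums lay between 28.0 and 41.2 CPM, endothelial-like sums between 8.23 and 16.0 CPM, and the precursor-like sums of at least 10 cells at 3.40 and 10.2 CPM, from 2 and 3 UMIs. Among these classes astroglia-like cells were the highest in each library, with log2 differences of 1.84 ± 0.22 from mural-like cells, 3.31 ± 0.26 from endothelial-like cells and 4.63 ± 0.41 from precursor-like cells. Notch1 was measured at 118 to 154 CPM in astroglia-like, 94.1 to 168 CPM in endothelial-like and 191 to 277 CPM in mural-like sums, so the mural-like sums were the highest of these. The log2 differences of -0.59 ± 0.14 for astroglia minus mural (adjusted p = 0.0018, edgeR) and -0.63 ± 0.17 for endothelial minus mural (adjusted p = 0.0082, edgeR) passed the p threshold but missed the fold threshold, and Notch1 was called in none of the 4 contrasts.

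Of the ligands, Dll4 was measured at 54.9 and 79.2 CPM in the postnatal and 35.9 and 50.2 CPM in the 3m endothelial-like sums. Mural-like sums held 42.0, 9.21, 3.74 and 6.85 CPM, and no astroglia-like sum held more than 1.87 CPM or 5 UMIs. Postnatal mural-like sums also held endothelial markers, at 2113 and 794 CPM, against 6621 and 5834 CPM in endothelial-like sums. Postnatal endothelial-like sums held mural markers at 854 and 1291 CPM, against 22394 and 20631 CPM in mural-like sums. The part of this mixing in the vascular levels was not tested. The endothelial minus mural log2 fold change was 2.52 ± 0.57 (adjusted p = 0.0022, edgeR), and the astroglia minus endothelial value was -6.40 ± 0.57 (adjusted p = 5.6e-09, edgeR). Jag1, which encodes another transmembrane ligand, was measured at 113 to 168 CPM in mural-like, 25.1 to 51.8 CPM in endothelial-like and 12.01 to 22.9 CPM in astroglia-like sums, and at 18.7 CPM postnatally and 61.4 CPM at 3m in the replicate 1 precursor-like sums. Of these, mural-like cells were the highest in each library, with log2 differences of -2.86 ± 0.19 for astroglia minus mural and -1.69 ± 0.23 for endothelial minus mural.

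Dll1, a Delta ligand, was highest in precursor-like cells among the classes compared. It was measured at 45.9 CPM (27 UMIs) in the precursor-like cells of postnatal replicate 1 and 44.3 CPM (13 UMIs) in those of 3m replicate 1. Astroglia-like sums held 3.53, 6.13, 6.41 and 2.62 CPM, while the oligodendrocyte-like cells held 4.82 and 4.18 CPM, so the ranges of these classes overlapped. The astroglia minus precursor log2 fold change of Dll1 was -2.90 ± 0.57 (adjusted p = 6.9e-04, edgeR). The contrasts with precursor-like cells rest on the replicate 1 libraries alone for that class, because the replicate 2 libraries held 4 and 7 such cells. Dll1 was also called against mural-like cells, all 4 of whose sums held 0 UMIs, a call that was lost without postnatal replicate 2 (adjusted p = 0.109), without 3m replicate 1 (adjusted p = 0.115) and with a 5-fold marker margin (adjusted p = 0.084).

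Of the targets, Hes5 was measured at 1295 and 1275 CPM in the postnatal and 414 and 449 CPM in the 3m astroglia-like sums. The precursor-like sums of replicate 1 held 1026 CPM postnatally and 368 CPM at 3m. Endothelial-like sums held 0 to 5 UMIs each, and mural-like sums held 1, 32, 0 and 0 UMIs, of which the 32 in postnatal replicate 2 came from 7 cells, with 12 in 1 cell. The 2 glial classes therefore shared Hes5, with an astroglia minus precursor log2 difference of 0.69 that did not reach the fold threshold. The fitted contrasts of Hes5 with vascular cells, 7.98 ± 0.37 for endothelial-like and 8.92 ± 0.47 for mural-like cells, rest on sums near 0 and are not bounds on the fold.

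The order of the classes for Hes1 differed between the ages. Postnatally it was measured at 745 and 509 CPM in astroglia-like, 615 and 550 CPM in endothelial-like and 504 and 412 CPM in mural-like sums, and at 213 CPM in the precursor-like sum of replicate 1. At 3m it was measured at 148 and 111 CPM in astroglia-like, 423 and 271 CPM in endothelial-like and 464 and 836 CPM in mural-like sums, and at 225 CPM in the precursor-like sum of replicate 1. Astroglia-like sums thus lay above mural-like sums postnatally and below both vascular classes at 3m. The 4 contrasts average over the ages, and in them Hes1 was not called, although it passed in astroglia minus mural without 3m replicate 1 (adjusted p = 8.9e-05) and in astroglia minus precursor without 3m replicate 2 (adjusted p = 4.3e-04), each time just past the fold threshold. Hey1 was called against mural-like cells, with a log2 difference of 2.02 ± 0.38, from 37.2 to 76.6 CPM in astroglia-like and 3.42 to 65.3 CPM in mural-like sums. Oligodendrocyte-like cells held at most 8.82 CPM of any member, at 3m, where the class was present. In counts of members called, astroglia minus endothelial gave 3 higher and 2 lower, beside 38.8% of all genes called. Astroglia minus precursor gave 2 higher and 1 lower beside 22.0%, astroglia minus mural gave 4 higher and 3 lower beside 32.7%, and endothelial minus mural gave 1 higher and 3 lower beside 17.3%. Jag1 in astroglia minus endothelial (-1.18 ± 0.26) lost its call without 3m replicate 1 (adjusted p = 0.0998), Notch2 in endothelial minus mural (-1.47 ± 0.40) lost it without postnatal replicate 2 (adjusted p = 0.134) or 3m replicate 1 (adjusted p = 0.052), and Dll4 in astroglia minus mural (-3.88 ± 1.01) lost it with a 5-fold margin (adjusted p = 0.228).

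The other genes of the pathway, a list of 52, were spread over the same classes. Heyl, a Hey-family repressor, was measured at 163, 216, 232 and 281 CPM in mural-like cells and at no more than 10.3 CPM elsewhere. Jag2 was an endothelial ligand, at 43.9 and 39.1 CPM postnatally and 140 and 110 CPM at 3m, against 4 UMIs in all astroglia-like cells together. Notch4, a receptor known from endothelium, was measured at 20.1 to 47.9 CPM in endothelial-like, 11.5 to 51.3 CPM in mural-like and 6.05 to 8.81 CPM in astroglia-like cells, and its endothelial minus mural difference of 0.54 ± 0.42 was not called. Lfng, which adds a sugar that alters ligand choice of the receptors, was measured at 73.3 to 106 CPM in astroglia-like cells and at no more than 6.81 CPM in any precursor-like sum. Dll3, a ligand that acts mainly within its own cell, reached 145 CPM in the precursor-like cells of postnatal replicate 1 and 51.1 CPM in those of 3m replicate 1, against at most 5.29 CPM in astroglia-like cells. Of the 47 pathway genes tested, 14 were higher and 5 lower in astroglia-like than in endothelial-like cells, 5 higher and 2 lower than in precursor-like cells, and 5 higher and 9 lower than in mural-like cells, and 5 were higher and 9 lower in endothelial-like than in mural-like cells. Median log2 differences over the list were 0.27, 0.04, -0.05 and -0.14 in that order, beside 0.26, 0.12, 0.18 and -0.05 over all genes. The shares of all genes called in those contrasts were 38.8%, 22.0%, 32.7% and 17.3%.

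Across the 16 sums, the 3 genes whose level followed Hes5 most closely were Sall3, Pou3f2 and Sox21, with Pearson correlations of log2(CPM + 1) of 0.979, 0.975 and 0.974. For Dll4 they were Rassf9 (0.975), Stra6 (0.974) and Il2rg (0.970), and for Notch3 they were Vasn (0.947), Heyl (0.943) and Col5a2 (0.940). The sums share 4 libraries and differ in depth, so these values describe likeness over the classes and carry no test. The gene leading for Dll4 was highest in endothelial-like cells, at 172 to 295 CPM of Rassf9, and that for Notch3 in mural-like cells, at 60.6 to 123 CPM of Vasn.

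The next comparison asked how the members changed between the postnatal stage and 3m within astroglia-like cells (351 and 512 postnatal and 311 and 287 3m cells). Hes1, Hes5 and Notch3 were lower at 3m, and the other 5 members tested were not called. Hes1 was measured at 745 and 509 CPM postnatally (627 ± 167, SD, n = 2 libraries) and 148 and 111 CPM at 3m (129 ± 26.2). Hes5 was measured at 1295 and 1275 CPM (1285 ± 13.7) and then 414 and 449 CPM (432 ± 24.7). Notch3 was measured at 50.1 and 60.8 CPM (55.5 ± 7.53) and then 16.4 and 20.6 CPM (18.5 ± 2.94). For all 3 genes both 3m libraries lay below both postnatal libraries. Among all 11795 genes tested in the class, the ages did not overlap in either direction for 75.7%.

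The log2 fold change of 3m over postnatal was -2.02 ± 0.28 (SE) for Hes1 (adjusted p = 0.0053), -1.31 ± 0.19 for Hes5 (adjusted p = 0.0063) and -1.32 ± 0.20 for Notch3 (adjusted p = 0.0067), in edgeR's quasi-likelihood test over 11795 genes. Thus 0 of the 8 members tested were higher and 3 were lower, beside 24.2% of all genes called in either direction and 10.4% called lower. The median over the 8 members was -0.35, beside -0.004 over all genes. Without scaling factors the median of all genes moved to -0.27, and the 3 members remained called. Hes5 lost its call without 3m replicate 1 (-1.25, adjusted p = 0.089) and without 3m replicate 2 (-1.36, adjusted p = 0.076), when the number of called genes also fell from 2849 to 1462 and 1475. Under a stricter gate, which called 647 genes, Notch3 was at -1.97 and not called (adjusted p = 0.0987).

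**Figure D2:**
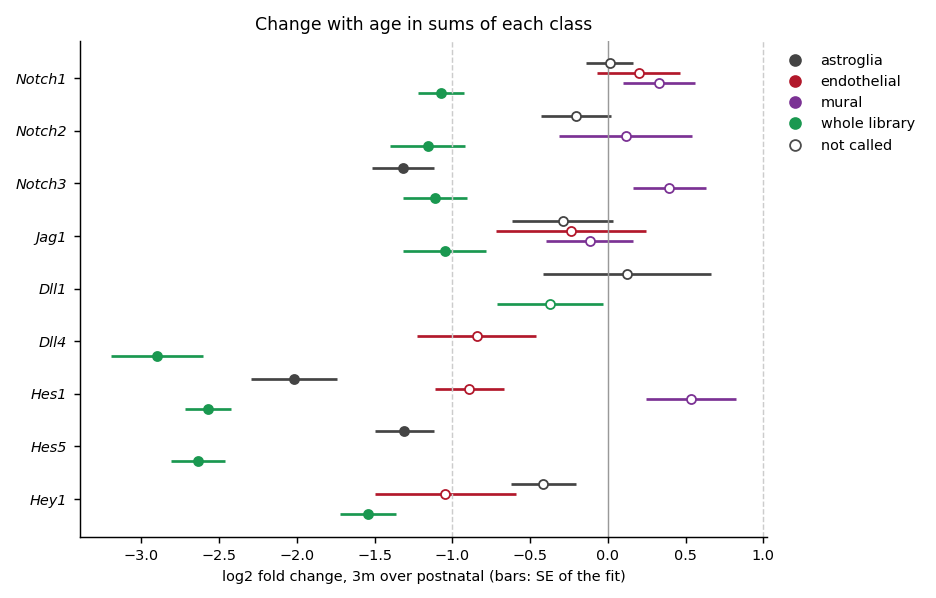
Log2 fold change of 3m over postnatal (horizontal axis) for each member in sums over astroglia-like cells, endothelial-like cells, mural-like cells and whole libraries, with bars for the SE of the fit. Filled points passed both thresholds, and members without a point in a class were not tested there. Hes1, Hes5 and Notch3 are filled in astroglia-like cells, none in endothelial-like or mural-like cells, and all but Dll1 in whole libraries.

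The level of immediate early genes, which cells switch on within minutes of a stimulus, moved with this comparison. The summed level of 10 such genes (Fos, Fosb, Jun, Junb, Egr1, Ier2, Nr4a1, Atf3, Btg2 and Socs3) was 5673 and 4241 CPM in the postnatal and 483 and 152 CPM in the 3m astroglia-like sums, with 0 of the 10 genes at 0 postnatally and 1 and 2 at 0 at 3m. In endothelial-like cells it was 2085 and 1871 CPM postnatally and 2987 and 2654 CPM at 3m, and in mural-like cells 1656 and 1962 CPM and then 1287 and 3342 CPM. The postnatal sums were thus the higher ones in the astroglia-like class and not in the vascular classes. The astroglia-like cells of each library were therefore split at the median share of these UMIs, into a low and a high group, a split added after the data had been seen.

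The levels of Hes1 and Hes5 lay far apart between these groups in the postnatal libraries and close together at 3m. At 3m the immediate early level of the whole class was far lower, as given above. Hes1 was measured at 230 CPM in the low group and 1043 CPM in the high group of postnatal replicate 1, and at 276 and 687 CPM in those of postnatal replicate 2. In the 3m libraries the groups held 128 and 159 CPM and 110 and 111 CPM. Hes5 was measured at 523 and 1742 CPM and at 749 and 1678 CPM in the low and high groups of the postnatal libraries, and at 397 and 425 CPM and 425 and 465 CPM at 3m. Notch3 was measured at 50.2 and 50.1 CPM and at 65.0 and 57.6 CPM in the low and high groups of the postnatal libraries, and at 19.8 and 14.5 CPM and 27.3 and 16.2 CPM at 3m. It was not higher in the high group in any library.

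When only the low groups were compared between ages, 0 of 7 members tested were called by edgeR, with 3 at an unadjusted p under 0.05, beside 27.4% of all genes (2659 of 9698). There the log2 fold change was -0.75 for Hes1 (adjusted p = 0.023) and -0.95 for Notch3 (adjusted p = 0.024), which both missed the fold threshold, and -0.29 for Hes5 (adjusted p = 0.42). Even these groups did not match in immediate early level, which was 932 and 1089 CPM postnatally and 5.50 and 10.3 CPM at 3m. The 3m astroglia-like sums as a whole, at 483 and 152 CPM, also lay below both postnatal low groups. The 3m split thus spanned lower levels than the postnatal one. Whether Hes1 and Hes5 moved with the immediate early genes at 3m was not tested. The part of this program in the fall of Hes1, Hes5 and Notch3 was not tested. Oligodendrocyte markers also moved with age in the astroglia-like sums, at 12.9 and 10.7 CPM postnatally (4 and 1 of the 8 markers at 0) and 501 and 162 CPM at 3m (none at 0), and their part was not tested. Median depth also differed between ages, at 10262 and 13005 UMIs per postnatal and 6254 and 8775 UMIs per 3m astroglia-like cell.

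**Figure D3:**
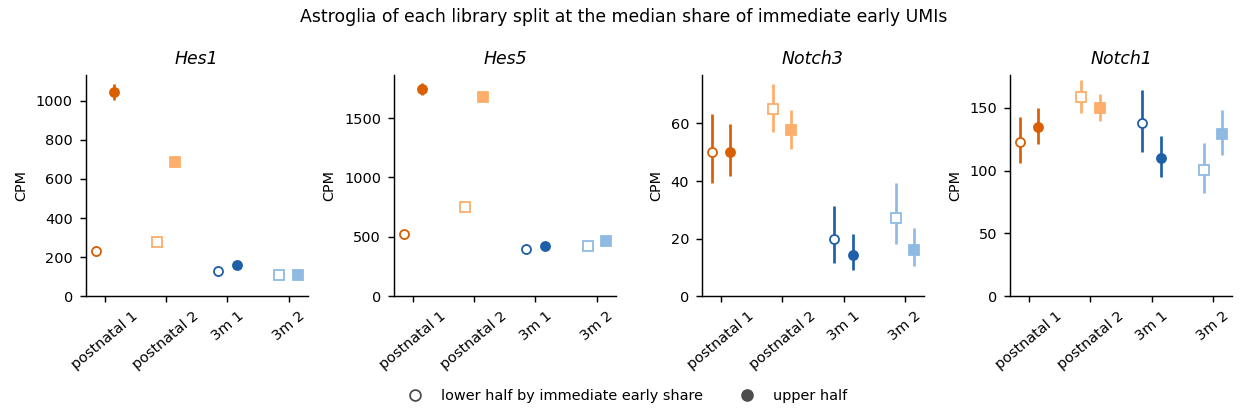
CPM (linear axis from 0) of Hes1, Hes5, Notch3 and Notch1 in the low (open) and high (filled) group of astroglia-like cells of each library, split at the median share of immediate early UMIs, with exact 95% Poisson intervals for counting error. The groups of the postnatal libraries are far apart for Hes1 and Hes5, at 230 against 1043 CPM of Hes1 in replicate 1, while the 3m groups lie close together.

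The remaining members of the astroglia-like class were not called. The effector Hey1 was measured at 76.6 and 68.7 CPM postnatally and 37.2 and 53.1 CPM at 3m (log2 fold change -0.42 ± 0.21, adjusted p = 0.17, edgeR). Both 3m libraries lay below the postnatal ones, beside 75.7% of genes without overlap in either direction, but the difference did not pass the test. Notch2 was at -0.20 ± 0.22, Jag1 at -0.29 ± 0.32, Notch1 at 0.01 ± 0.15 and Dll1 at 0.12 ± 0.54. Notch1, the receptor most studied in neural progenitors, was measured at 131 and 154 CPM and then 120 and 118 CPM. Dll4 was too sparse to be tested.

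Of the 52 other pathway genes, 44 were tested in astroglia-like cells, of which 5 were higher and 2 lower at 3m, beside 24.2% of all genes called in either direction, so the list was not called more often than genes at large. The median log2 fold change of this list was -0.008. Those higher were Tle4 (1.39 ± 0.30), a corepressor, Aph1c (1.31 ± 0.29) and Aph1b (1.16 ± 0.31), parts of the protease that cuts the receptor, the atypical ligand Dner (1.17 ± 0.26) and the Deltex gene Dtx3 (1.10 ± 0.14). Those lower were Dtx4 (-2.01 ± 0.31), a Deltex ubiquitin ligase that acts on Notch, and Fbxw7 (-1.39 ± 0.27), whose protein marks the cut receptor for degradation. Dtx4 was measured at 25.2 and 35.0 CPM postnatally and 7.61 and 4.86 CPM at 3m. Nrarp, a feedback inhibitor that is itself a Notch target, was measured at 208 and 171 CPM and then 91.7 and 110 CPM. Its log2 fold change of -0.65 ± 0.19 (adjusted p = 0.044) missed the fold threshold. Rbpj, which encodes the DNA-binding partner of the receptor, was at -0.44 ± 0.15 (adjusted p = 0.058), and Lfng (0.13), Hes6 (-0.34), Heyl (-0.69), Dll3 (-0.49) and Notch4 (0.72) were not called either.

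The share of astroglia-like cells with at least 1 UMI of a member was compared after each cell was thinned to 2000 UMIs, with 7 to 39 shallower cells left out per library. Hes5 was detected in 66.4% and 74.7% of the postnatal and 46.5% and 49.0% of the 3m cells. Hes1 was detected in 48.6% and 47.8% and then in 21.2% and 20.4%, and Notch3 in 9.68% and 12.1% and then in 3.56% and 4.53%. In the 553 and 290 oligodendrocyte-like cells, taken as a background class for these 3 genes, the shares were 0.63% and 0.66% for Hes5, 0.15% and 0.15% for Hes1, and 0.03% and 0.11% for Notch3. Without thinning, Notch3 was detected in 33.3% and 53.5% of the postnatal and 10.9% and 16.7% of the 3m astroglia-like cells.

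For Notch1 the shares were 20.7% and 28.4% and then 19.9% and 19.4%, for Notch2 25.3% and 25.7% and then 14.9% and 19.8%, for Hey1 14.9% and 13.9% and then 6.17% and 10.2%, and for Jag1 4.38% and 3.61% and then 2.01% and 2.49%. Dll1 was detected in 0.29% and 0.98% and then in 0.72% and 0.14% of astroglia-like cells, beside 0.87% and 0.84% of oligodendrocyte-like cells. The oligodendrocyte-like cells held 41.5% and 52.9% of the Dll1 UMIs at 3m, with up to 4 in 1 cell. They also held 5599502 of the 9815340 and 4307644 of the 7910086 UMIs of all genes in these libraries. Such shares therefore do not show whether the class itself expresses Dll1, and it was not taken as a background for this gene. Single astroglia-like cells held up to 14 Dll1 UMIs in postnatal replicate 2 and up to 6 in 3m replicate 1. For 7 of the 9 members both 3m libraries lay below both postnatal libraries, beside 49.0% of all 11795 genes tested in the class. The exact two-sided permutation test gave p = 0.333 for each of the 7, the smallest that 2 against 2 libraries allow.

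**Figure D4:**
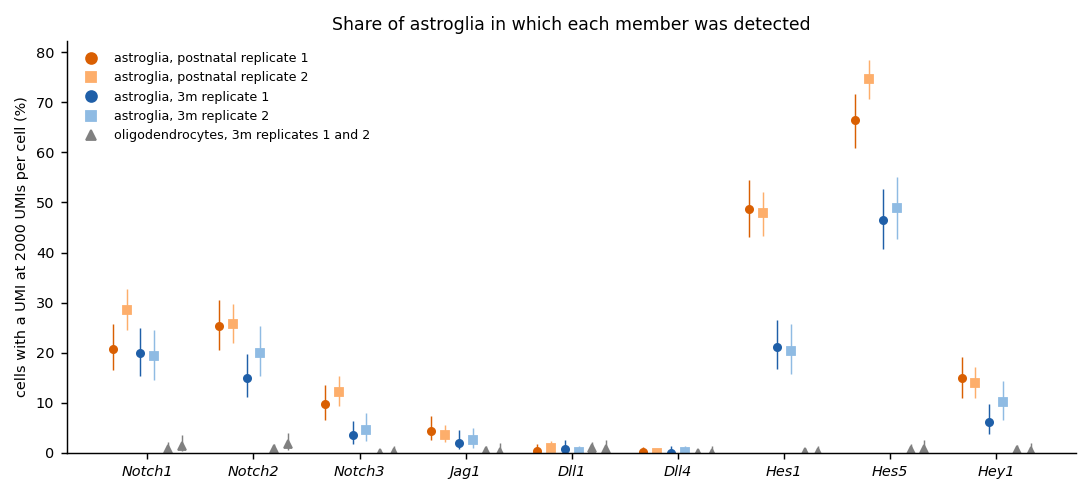
Share of astroglia-like cells (%) with a UMI of each member after thinning to 2000 UMIs per cell, for each library, and the same share in oligodendrocyte-like cells, present at 3m (triangles), with exact 95% Clopper-Pearson intervals for counting error. Hes5 ran from 46.5% to 74.7% and Hes1 from 20.4% to 48.6%, with the 3m libraries lowest for both, while Dll1 was below 1% in each library.

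Hes1 and Hes5 were also read in the same cells at this depth. UMIs of both were found in 38.1% and 37.9% of the postnatal and 9.84% and 9.23% of the 3m astroglia-like cells. Cells with neither made up 23.0% and 15.4% of the postnatal and 42.1% and 39.9% of the 3m cells. Cells with Hes5 alone made up 28.4%, 36.8%, 36.7% and 39.7%, and cells with Hes1 alone between 9.92% and 11.4%. The ages thus did not overlap in the share of cells with both or with neither, while the shares with Hes5 alone overlapped. The shares with both depend on the shares of each gene given above, and a departure from those was not tested. The shares with Hes1 alone lay within a narrow range, with both 3m values above both postnatal ones.

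Some postnatal astroglia-like cells were dividing, with at least 3 UMIs of 8 cell cycle genes in 26 and 79 cells of postnatal replicates 1 and 2. Beside the 279 and 343 cells with no UMI of those genes, they held less Notch2, at 78.1 and 36.5 CPM against 165 and 168 CPM, and less Notch3, at 31.6 and 38.3 CPM against 51.4 and 72.8 CPM. They held more Dll1, at 16.7 and 5.90 CPM (9 and 16 UMIs) against 1.09 and 3.76 CPM. In replicate 2 the Poisson interval of the dividing cells included the value of the others, so this direction rests mainly on replicate 1. The criterion of at least 3 UMIs also favours deeper cells. Hes5 was at 1585 and 1439 CPM against 1245 and 1210 CPM. Hes1 had no common direction, at 528 and 712 CPM against 774 and 407 CPM. With 2 libraries these values are a description and were not tested.

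At 3m only 3 cells in each library met this criterion, and they held 7 of the 16 and 7 of the 7 Dll1 UMIs of the astroglia-like class. The 301 and 278 cells without a cell cycle UMI held 2 and 0 Dll1 UMIs. The Dll1 of the class at 3m thus lay mostly in cells with cell cycle UMIs. Hes1, Hes5 and Notch3 remained called when all cells with a cell cycle UMI were left out.

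In endothelial-like cells 0 of the 5 members tested were called between ages by edgeR, beside 21.9% of all genes, with 3 at an unadjusted p under 0.05 and 0 called by DESeq2. These sums rest on 14 and 12 postnatal and 33 and 26 3m cells, with median depths of 33091 and 68800 UMIs per postnatal and 5981 and 5664 UMIs per 3m cell. Hes1 was measured at 615 and 550 CPM postnatally and 423 and 271 CPM at 3m, a log2 fold change of -0.89 ± 0.22 (adjusted p = 0.0068, edgeR) that missed the fold threshold. Dll4 was at -0.84 ± 0.38 (adjusted p = 0.12), Hey1 at -1.05 ± 0.45 (adjusted p = 0.098), Jag1 at -0.24 ± 0.48 and Notch1 at 0.20 ± 0.27. The 3m libraries lay below the postnatal ones for Hes1, Dll4 and Hey1. Among all 6111 genes tested in the class, the ages did not overlap in either direction for 63.7%. Without postnatal replicate 2 the number of genes called in the class fell from 1338 to 874, with 0 members. Dll4 passed both thresholds without postnatal replicate 1 (-1.09), Hes1 without 3m replicate 1 (-1.27) and Hey1 without 3m replicate 2 (-1.95).

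Cell cycle markers also differed in these sums, at 686 and 863 CPM postnatally and 3.99 and 15.1 CPM at 3m, and only 4 and 3 postnatal cells held no UMI of them. Their part in the changes of this class was not tested. Among other genes of the pathway, Nrarp was measured at 122 and 113 CPM (78 and 110 UMIs) postnatally and at 7.99 and 10.03 CPM (2 UMIs each) at 3m. Its log2 fold change was -3.84 ± 0.45 (adjusted p = 9.2e-06, edgeR). Higher at 3m were Lfng (1.75 ± 0.42, adjusted p = 0.0048), the ligand Jag2 (1.45 ± 0.30, adjusted p = 0.0017) and Poglut1 (1.44 ± 0.44, adjusted p = 0.021), whose enzyme attaches glucose to Notch receptors. Thus 3 of the 27 pathway genes tested were higher and 1 was lower, beside 21.9% of all genes called, with a list median of 0.33 beside -0.02 over all genes. Notch4 (-0.37), Rbpj (0.61) and Hes6 (-0.12) were not called.

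In mural-like cells 0 of the 5 members tested were called by edgeR either, beside 9.31% of all genes, with 0 at an unadjusted p under 0.05 and 0 called by DESeq2. These sums came from 23 and 33 postnatal and 68 and 53 3m cells. Notch3 was at 0.40 ± 0.24, Notch1 at 0.33 ± 0.23, Notch2 at 0.11 ± 0.43 and Jag1 at -0.12 ± 0.28. Hes1 was measured at 504 and 412 CPM and then 464 and 836 CPM (0.53 ± 0.29), so the ages overlapped. Of the 23 pathway genes tested, 0 passed in edgeR, with 5 at an unadjusted p under 0.05. Of the 29 that DESeq2 tested, it called 1, Dlk1, which was too sparse to be tested in the edgeR fit of this class. Heyl was at 0.43 ± 0.25 and Nrarp at -0.04 ± 0.29. Cell cycle markers were at 392 and 1446 CPM postnatally and 3.74 and 3.42 CPM at 3m in these sums, and their part was not tested. The number of genes called in the class rested on single libraries, since 475 were called with all 4, 0 without 3m replicate 1, 15 without 3m replicate 2 and 918 without postnatal replicate 1. Hes5, too sparse to be tested with all 4 libraries under the filter on low counts, was called lower in that last setting and without the filter, on the 32 UMIs described above. The sum that holds them also held astroglial markers at 583 CPM, against 74.6, 195 and 82.2 CPM in the other mural-like sums, and their part was not tested.

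Whether the change with age differed between classes was tested in the fit of all class sums. Against mural-like cells, the change in astroglia-like cells was lower for Hes1, by a log2 difference of -2.49 ± 0.34 (adjusted p = 7.3e-05, edgeR), and for Notch3, by -1.67 ± 0.28 (adjusted p = 7.7e-04, edgeR), beside 5.86% of all genes called. Against endothelial-like cells 0 members were called by edgeR, with 2 at an unadjusted p under 0.05 and 0 called by DESeq2, beside 9.11% of all genes. Hes1 was at -0.93 ± 0.34 (adjusted p = 0.093), but it passed without postnatal replicate 2 (-1.20, adjusted p = 0.015) and without scaling factors (-1.52, adjusted p = 0.0040). Against precursor-like cells Hes1 was called, at -2.01 ± 0.47 (adjusted p = 0.025), beside 2.38% of all genes. For precursor-like cells this compares 1 library with 1, so its error comes from the spread of the other classes and assumes that they vary alike. Hes1 was measured at 213 and 225 CPM in those precursor-like sums. Hes5 moved from 1026 to 368 CPM there, and its difference between the classes was 0.53 ± 0.49 and not called. The immediate early level was 1179 CPM postnatally and 1698 CPM at 3m in the replicate 1 precursor-like sums, against 5673 and 483 CPM in the astroglia-like sums of the same libraries, and its part in these differences was not tested. Cell cycle markers were at 1541 and 3.41 CPM in those precursor-like sums, against 392 and 22.8 CPM in the astroglia-like sums. Their part was not tested either.

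Over whole libraries, 8 of the 9 members were lower at 3m and none was higher, beside 13.4% of all 14282 genes called lower. The log2 fold changes were -2.90 ± 0.30 for Dll4, -2.63 ± 0.17 for Hes5, -2.57 ± 0.15 for Hes1, -1.54 ± 0.18 for Hey1, -1.16 ± 0.24 for Notch2, -1.11 ± 0.21 for Notch3, -1.07 ± 0.15 for Notch1 and -1.05 ± 0.27 for Jag1. Dll1 was at -0.37 ± 0.34 and not called. In such sums fewer cells of a type and less RNA per cell cannot be told apart, and the class shares given above differed between the ages. Notch1, Notch2 and Jag1, which were lower over whole libraries, were not called in any of the 3 classes in which they were tested, with Notch2 too sparse in endothelial-like cells. Leaving out 1 library left 5 to 7 members called, with Notch1 (without postnatal replicate 2), Notch2 (without 3m replicate 1), Notch3 (without postnatal replicate 2, 3m replicate 1 or 3m replicate 2) and Jag1 (without postnatal replicate 1, 3m replicate 1 or 3m replicate 2) losing their calls. Of the 52 other pathway genes, 48 were tested, of which 3 were higher and 11 lower, beside 15.8% of all genes called higher, 13.4% called lower and 29.3% called in either direction, with a median of -0.12 beside 0.02 over all genes.

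The cells that held the UMIs of a member also differed between the ages. Of the Notch3 UMIs, astroglia-like cells held 59.2% and 67.5% in the postnatal libraries and 18.1% and 27.4% at 3m, while mural-like cells held 19.0% and 22.2% and then 56.8% and 61.2%. Hes5 UMIs lay in astroglia-like cells in every library, with shares of 79.8%, 93.9%, 83.5% and 97.5%. Dll4 was rare, with 138 and 164 UMIs in the postnatal and 17 and 19 UMIs in the 3m libraries. Endothelial-like cells held 25.4%, 47.0%, 52.9% and 52.6% of these, and cells of no class held 66.7% and 50% in the postnatal libraries.

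The postnatal cells of no class with Dll4 numbered 14 and 12 and were deep, with medians of 57411 and 43975 UMIs. They held endothelial markers at 5910 and 6422 CPM, mural markers at 5027 and 5650 CPM and astroglial markers at 171 and 162 CPM, beside erythroid genes at 37142 and 88000 CPM. As a sum they carried markers of both vascular classes, and the gate asks for a 2-fold margin between classes. Which condition of the gate each cell failed was not tested. The whole-library change of Dll4 therefore includes cells that entered neither vascular sum, and the value within endothelial-like cells was smaller, at -0.84.

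**Figure D5:**
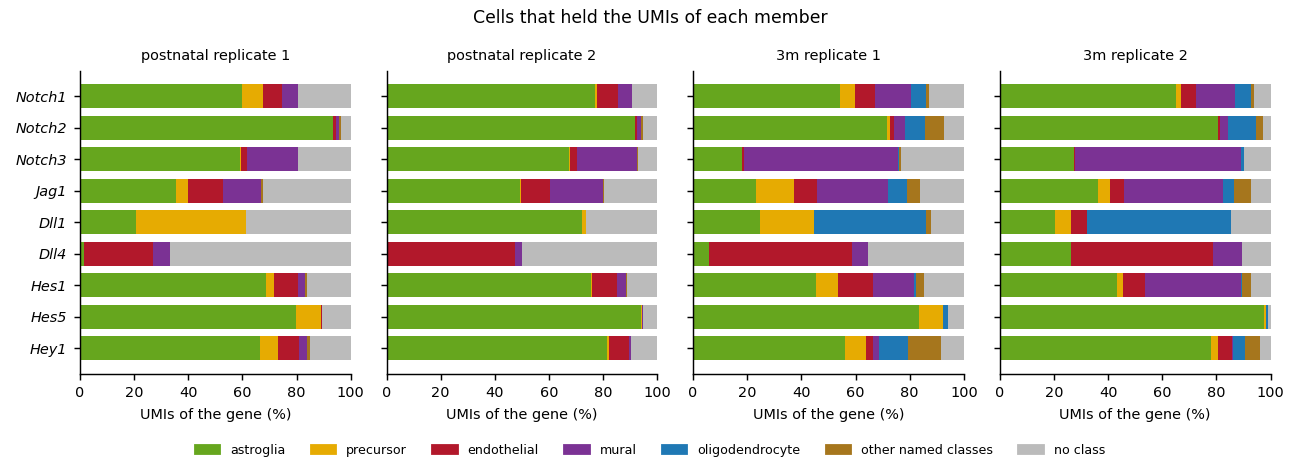
Share of the UMIs of each member (horizontal axis, % of the gene's UMIs in a library) held by cells of each class, with 1 panel per library. Notch3 passed from 59.2% and 67.5% in astroglia-like cells of the postnatal libraries to 56.8% and 61.2% in mural-like cells at 3m, and 66.7% of the Dll4 UMIs of postnatal replicate 1 lay in cells of no class.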

How the data were processed

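The values deposited by the authors are raw UMI counts, not normalised, in 1 table of genes by barcodes in which the runs of a library were merged and of which 0 columns of cells were left unused. The submitters' processing notes name Cell Ranger, mm10 and Seurat 3.1.1, and the methods of the study, which do not describe these libraries separately, used the same filters on cells. Further preparations of the study were not analysed here. Samples were grouped by age from their labels, with the library as replicate. Nothing in the labels says whether replicates came from separate litters, so p-values measure the spread between these libraries.

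The members and gene lists were chosen with earlier results of these data known. The marker gate was set after the class sizes had been seen. Doublets marked by Scrublet (3 to 5 per library) were kept. Raw counts were summed per library and class for sums of at least 10 cells and tested with the quasi-likelihood test of edgeR 4.0.16 (TMM, filterByExpr), with adjustment over all genes tested and calls at an adjusted p of 0.05 and a log2 fold change of 1. DESeq2 1.42.0 was an alternative. CPM is the count per 1e6 UMIs of a sum. Detection is the expected share of cells with a UMI over all draws of 2000 UMIs per cell, computed exactly, and its Clopper-Pearson interval uses that count rounded to whole cells. Intervals cover counting error only, and a count of 0 allows up to 3 counts. On simulated astroglia-like sums, edgeR called 90 of the 100 genes simulated with a 4-fold change, 32 of the 100 with a 2-fold change and 3 without a change. In endothelial-like sums it called 79 and 21 of the changed genes, and in mural-like sums 74 and 19. The 9 members are always named, and other pathway genes may be named if called (at most 10 per comparison, by the size of the fold change) or where they are Notch4, Dll3, Jag2, Hes6, Heyl, Nrarp, Rbpj or Lfng. A further gene of this rule is not reported here. The nearest genes were the 3 with the highest correlation. Alternatives covered the tool, scaling, filters, gate, cycling cells, copies, doublets, replicate block and each library left out.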

Additional observations from a re-analysis of the deposited data

Results flagged for a closer look

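The following differences between cell classes in the change with age passed the test of the difference itself, in edgeR's quasi-likelihood test of all class sums. The 9 members and 47 other pathway genes were tested in each. Of all genes, 5.86% were called against mural-like, 9.11% against endothelial-like and 2.38% against precursor-like cells. Each value is the log2 fold change of 3m over postnatal in astroglia-like cells minus that in the other class. Against mural-like cells they were -2.49 for Hes1 (adjusted p = 7.3e-05), -1.67 for Notch3 (adjusted p = 7.7e-04), -3.19 for Dtx4 (adjusted p = 0.0011), 1.92 for Tle4 (adjusted p = 0.027), 1.30 for Aph1a (adjusted p = 0.035), 1.20 for Adam10 (adjusted p = 0.031) and 9.47 for Dlk1 (adjusted p = 0.028). The value for Dlk1 rests on 7 and 27 UMIs in the postnatal and 0 UMIs in both 3m mural-like sums, so its size depends on how the fit treats zeros. Against endothelial-like cells they were 3.39 for Nrarp (adjusted p = 3.3e-04), 1.24 for Aph1a (adjusted p = 0.013), 1.04 for Tle4 (adjusted p = 0.032) and -1.51 for Lfng (adjusted p = 0.041). Nrarp was lower at 3m in both classes, from 122 and 113 to 7.99 and 10.03 CPM in endothelial-like and from 208 and 171 to 91.7 and 110 CPM in astroglia-like cells, and the latter missed the fold threshold. Against precursor-like cells the value was -2.01 for Hes1 (adjusted p = 0.025), for which that class has 1 library per age, so the error comes from the spread of the other classes.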

How the results depend on the processing

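Of 642 values of single members under alternatives, 591 kept their direction and side of the thresholds, 21 lost and 9 gained a call, and 21 turned sign, none of which was called in either setting. Turned values in astroglia-like cells were those of Notch1 without scaling (-0.26), with DESeq2 (-0.041), without a filter (-0.053), under the strict gate (-0.14) and without cycling cells (-0.11), and of Dll1 without scaling (-0.15), with a 5-fold margin (-0.80) and under a loose gate (-0.024). Jag1 in mural-like cells turned to 0.16 with a 5-fold margin. Leaving out 1 library gave Notch1 -0.10 to 0.092 (age, astroglia), Notch2 -0.45 to 0.0079 (age, astroglia), Jag1 -0.64 to 0.066 (age, astroglia), Dll1 -0.64 to 0.65 (age, astroglia), Notch1 -0.078 to 0.51 (age, endothelial), Jag1 -0.75 to 0.20 (age, endothelial), Notch2 -0.057 to 0.43 (age, mural), Jag1 -0.44 to 0.13 (age, mural) and Hes1 -0.47 to 0.27 (endothelial minus mural). Counts of called genes and members over the same leave-outs were 1462 to 3703 genes and 2 to 3 members (astroglia), 2923 to 4603 genes and 5 to 7 members (whole-library), 874 to 1262 genes and 0 to 1 members (endothelial), 0 to 918 genes and 0 to 1 members (mural), 4144 to 4510 genes and 4 to 6 members (astroglia-like minus endothelial), 2529 to 2706 genes and 3 to 4 members (astroglia-like minus precursor), 3377 to 3657 genes and 6 to 7 members (astroglia-like minus mural), 1610 to 1976 genes and 3 to 5 members (endothelial minus mural), 460 to 1300 genes and 0 to 1 members (age change, astroglia-like minus endothelial), 332 to 999 genes and 2 to 3 members (age change, astroglia-like minus mural) and 253 to 538 genes and 1 member (age change, astroglia-like minus precursor). Counts of differences in age change moved by over 1.5 times without 3m replicate 1 (460 genes against endothelial-like and 351 against mural-like cells), without 3m replicate 2 (591 and 332) and without postnatal replicate 2 (455 against mural-like and 538 against precursor-like cells). Other counts that moved by over 1.5 times were 647 genes (strict gate) and 0 members (low immediate early group) in astroglia-like cells, 6530 genes over whole libraries by adjusted p alone, 782 genes with DESeq2 and 1 member without a filter or by adjusted p alone in endothelial-like cells, and 188 genes with DESeq2, 931 without a filter and 1 member without a filter in mural-like cells. For the difference in age change they were 1614 genes and 1 member without scaling and 714 genes with a 5-fold margin against endothelial-like cells, and 476 genes with a 5-fold margin and 2 members without scaling against precursor-like cells. The 5-fold and loose gates and the split by immediate early share were chosen after the data had been seen. The cause of these shifts was not tested. The labels do not say that a replicate number marks a shared batch or litter, and with 2 pairs the libraries were not treated as paired, although the replicate 2 libraries shared barcodes and same-numbered libraries had equal numbers of runs. Their deviations correlated at 0.155 in astroglia-like, 0.199 in whole-library, -0.012 in endothelial-like and 0.067 in mural-like sums. With a replicate block 3070, 4262, 1380 and 372 genes were called in that order, and 3, 8, 0 and 0 members. Not run, for too few cells or sums, were the strict gate outside astroglia-like and whole-library sums, the minimum of 1000 genes and the 5-fold margin in endothelial-like cells, the precursor-like age test, and precursor-like contrasts without a replicate 1 library. Depth limits Dll1 and Dll4 in astroglia-like cells, with at most 52 and 5 UMIs per sum.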
